A study of Mus musculus with 2 samples.

Results

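Of 20807 autosomal protein-coding genes, 9822 had a CpG-rich promoter, and 398 of these promoters were silent, that is, without a DNase I hypersensitive site in either of 2 libraries of mouse left cerebral cortex. The members were chosen by the deposited peaks and by sequence: the ratio of observed to expected CpG sites (CpG o/e) within 500 bp of the most 5′ transcription start site (TSS) was 0.6 or more, and no annotated TSS of the gene had a peak of either library within 1 kb. Silent here refers to DNase accessibility alone, since transcripts were not measured. The libraries were made by DNase-seq, which sequences the ends that DNase I leaves in accessible DNA, from female mice aged 14 days of the B6CASTF1/J hybrid, which is bred from C57BL/6J and CAST/EiJ. They are biological replicates 1 and 2 of a single group with no treatment or control, so no test between groups was possible, no p-value was computed, and the spread is that between 2 libraries.

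CpG islands are stretches of DNA that keep a high density of CpG sites, usually because they stay unmethylated in the germline, and most start the transcription of broadly expressed genes. In tissues where a gene is not used, the islands of developmental regulators are typically covered by Polycomb complexes, whereas those of many germline genes are held off by DNA methylation and by repressors that bind E-boxes and E2F sites. In the cerebral cortex, regulators of the hindbrain, spinal cord, limb and gut are known to stay repressed in this way.

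The promoters below run from 250 bases before to 50 bases after the start, counted from the most 5′ TSS, and were read from GRCm38.p6, the genome build of the files (mm10). The first 3 are silent, and the capitals mark CpG sites. Barhl2, a homeobox factor of retinal and spinal neurons, had the highest CpG o/e of all members. Cdx2, a homeobox factor of the gut and the trophoblast, had the longest CpG-rich stretch. Entpd4, a nucleotide-hydrolysing enzyme of internal membranes, stands for promoters whose sequence occurs elsewhere in the genome.
Barhl2, chr5:106458117-106458416, minus strand: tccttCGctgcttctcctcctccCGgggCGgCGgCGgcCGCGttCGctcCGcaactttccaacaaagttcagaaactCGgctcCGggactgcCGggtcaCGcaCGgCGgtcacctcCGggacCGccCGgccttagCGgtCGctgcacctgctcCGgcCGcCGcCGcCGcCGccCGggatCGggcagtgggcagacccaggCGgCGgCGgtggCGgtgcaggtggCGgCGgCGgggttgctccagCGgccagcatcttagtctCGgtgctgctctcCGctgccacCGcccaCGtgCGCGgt
Cdx2, chr5:147307221-147307520, minus strand: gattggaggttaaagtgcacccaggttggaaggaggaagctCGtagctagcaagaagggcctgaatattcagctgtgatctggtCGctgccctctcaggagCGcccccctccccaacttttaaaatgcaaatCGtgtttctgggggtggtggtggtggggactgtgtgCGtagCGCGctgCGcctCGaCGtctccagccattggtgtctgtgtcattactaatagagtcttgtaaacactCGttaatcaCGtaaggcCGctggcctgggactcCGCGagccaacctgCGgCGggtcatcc
Entpd4, chr14:69336924-69337223, plus strand: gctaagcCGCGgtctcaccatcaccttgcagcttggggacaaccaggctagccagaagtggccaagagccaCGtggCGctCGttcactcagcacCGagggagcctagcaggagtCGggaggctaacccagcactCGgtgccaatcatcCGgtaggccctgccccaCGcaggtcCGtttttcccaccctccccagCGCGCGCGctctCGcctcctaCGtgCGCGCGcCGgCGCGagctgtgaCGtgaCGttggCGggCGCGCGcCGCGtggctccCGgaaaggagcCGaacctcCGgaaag

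The next 5 are silent promoters of germline genes with an E-box near the start, followed by 2 accessible promoters of germline genes with no E-box in these 300 bases. Capitals mark the E-box CACGTG, which reads the same on both strands. Fkbp6 and Slc25a31 act in spermatogenesis, as a co-chaperone of the piRNA pathway and a mitochondrial ADP/ATP carrier, Hormad1 and Sycp3 are proteins of the meiotic chromosome axis, and Tex12 belongs to the central element of the synaptonemal complex. Dazl is an RNA-binding protein of germ cells, and Tssk6 is a kinase of spermatids. These 2 do not stand for all accessible germline promoters: 8 of 15 CpG-rich ones held an E-box within 500 bp of the TSS. The nearest peak to Dazl in replicate 1 lay 816 bp from the TSS, outside the bases shown.
Fkbp6, chr5:135349995-135350294, minus strand: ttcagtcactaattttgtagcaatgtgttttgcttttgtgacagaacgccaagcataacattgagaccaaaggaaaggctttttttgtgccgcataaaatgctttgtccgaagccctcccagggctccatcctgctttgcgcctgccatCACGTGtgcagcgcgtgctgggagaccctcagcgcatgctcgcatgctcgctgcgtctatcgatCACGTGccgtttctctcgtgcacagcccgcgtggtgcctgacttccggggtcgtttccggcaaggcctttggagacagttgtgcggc
Hormad1, chr3:95559427-95559726, plus strand: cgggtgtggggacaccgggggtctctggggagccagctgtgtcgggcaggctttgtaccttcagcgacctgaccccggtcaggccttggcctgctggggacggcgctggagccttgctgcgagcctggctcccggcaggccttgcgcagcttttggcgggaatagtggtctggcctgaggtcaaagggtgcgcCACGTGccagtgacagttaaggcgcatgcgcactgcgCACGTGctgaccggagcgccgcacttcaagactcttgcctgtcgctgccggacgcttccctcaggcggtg
Slc25a31, chr3:40708605-40708904, plus strand: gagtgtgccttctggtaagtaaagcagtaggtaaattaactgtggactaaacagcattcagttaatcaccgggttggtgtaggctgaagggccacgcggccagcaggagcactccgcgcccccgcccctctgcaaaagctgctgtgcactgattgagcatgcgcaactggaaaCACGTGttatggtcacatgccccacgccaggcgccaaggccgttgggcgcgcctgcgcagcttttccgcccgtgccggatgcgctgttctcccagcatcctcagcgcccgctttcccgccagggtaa
Sycp3, chr10:88459319-88459618, plus strand: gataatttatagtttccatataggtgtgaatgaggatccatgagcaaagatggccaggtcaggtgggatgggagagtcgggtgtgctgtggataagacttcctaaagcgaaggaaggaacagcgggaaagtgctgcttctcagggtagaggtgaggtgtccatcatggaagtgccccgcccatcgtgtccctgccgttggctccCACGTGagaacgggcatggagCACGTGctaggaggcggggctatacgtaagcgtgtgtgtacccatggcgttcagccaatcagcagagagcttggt
Tex12, chr9:50561276-50561575, minus strand: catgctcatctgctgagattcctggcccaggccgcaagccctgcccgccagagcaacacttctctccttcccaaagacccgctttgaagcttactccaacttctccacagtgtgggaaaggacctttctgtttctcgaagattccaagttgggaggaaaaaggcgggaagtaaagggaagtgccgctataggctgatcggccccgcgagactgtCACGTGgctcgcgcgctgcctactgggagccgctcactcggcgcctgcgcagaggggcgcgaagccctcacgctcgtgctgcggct
Dazl, chr17:50293587-50293886, minus strand: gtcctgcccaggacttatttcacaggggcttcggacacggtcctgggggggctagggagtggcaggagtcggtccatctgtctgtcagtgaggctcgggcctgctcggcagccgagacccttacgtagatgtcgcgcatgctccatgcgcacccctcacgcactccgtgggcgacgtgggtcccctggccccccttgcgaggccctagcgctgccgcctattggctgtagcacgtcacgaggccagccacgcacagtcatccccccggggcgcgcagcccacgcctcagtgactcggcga
Tssk6, chr8:69901934-69902233, plus strand: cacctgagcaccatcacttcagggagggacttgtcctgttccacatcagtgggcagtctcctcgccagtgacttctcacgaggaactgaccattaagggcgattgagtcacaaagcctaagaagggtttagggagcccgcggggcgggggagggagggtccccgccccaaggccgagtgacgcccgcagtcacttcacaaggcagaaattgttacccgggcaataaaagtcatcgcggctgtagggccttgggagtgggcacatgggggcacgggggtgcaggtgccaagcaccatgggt

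Replicate 1 held 90059 peaks and replicate 2 held 175597. A peak lay within 1 kb of a TSS in both libraries at 9163 CpG-rich promoters, in replicate 1 alone at 76 and in replicate 2 alone at 185. The share of CpG-rich promoters without a peak was 5.94% in replicate 1, 4.83% in replicate 2 and 4.05% in both at once. The tissue was checked on cell type markers. Of 26 autosomal markers of cortical neurons, 24 had a promoter peak in both libraries, against 0 of 5 markers of other tissues. No marker of either set was a member. Of the 5, Myod1, Acta1 and Cd3e had no peak in either library, and the rest had a peak in 1 library alone. Those without a peak were not members because their promoters were not CpG-rich. Peaks in both libraries lay at 5 of 6 astrocyte and 4 of 6 oligodendrocyte lineage markers. They lay at 2 of 5 microglia and 1 of 6 endothelial and mural markers. No marker of these sets was a member. Mog, Tmem119, Cdh5 and Pecam1 had no peak in either library and stayed out only because their promoters were not CpG-rich. Among 8 interneuron markers 3 had a peak in both libraries and 1, the neuropeptide gene Npy, was a member. Vip and Sst, also without a peak in either library, were not CpG-rich. In bulk tissue, a promoter open only in a rare cell type and one open in no cell cannot be told apart.

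The silent share fell steadily with CpG content. It was 86.8% of 1679 promoters with a CpG o/e under 0.1 and 12.2% of 1566 promoters between 0.5 and 0.6. Within the CpG-rich range it was 8.01% between 0.6 and 0.7, 3.71% between 0.7 and 0.8, 2.3% between 0.8 and 0.9 and 2.08% between 0.9 and 1.0. Only 3 of 401 promoters at 1.0 or more were silent, namely Barhl2, En2, a homeobox factor of the midbrain and hindbrain, and BC107364. The promoter sequence of BC107364 occurs elsewhere in the genome. CpG o/e is part of the rule, so the members' own values are given as a description. Just inside the threshold were Ly6g6c at 0.6002, Dll4, a Notch ligand, at 0.6008 and AC109138.7 at 0.6011, and just outside it were silent promoters such as that of P2rx5, an ATP-gated channel, at 0.5984. On the side of the peaks, the lowest signals that kept a CpG-rich promoter out were a single peak of 0.124 in replicate 2 at H60b, 0.144 at Gm3512 and 0.144 at Gm4767, all 3 without a peak in replicate 1. Most of the promoter sequence of Gm3512 and Gm4767 occurs elsewhere in the genome as well. Promoters with a peak in 1 library had a median signal of 0.489 in replicate 1 alone and 0.398 in replicate 2 alone, against 3.12 and 2.62 at promoters with a peak in both.

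**Figure D1:**
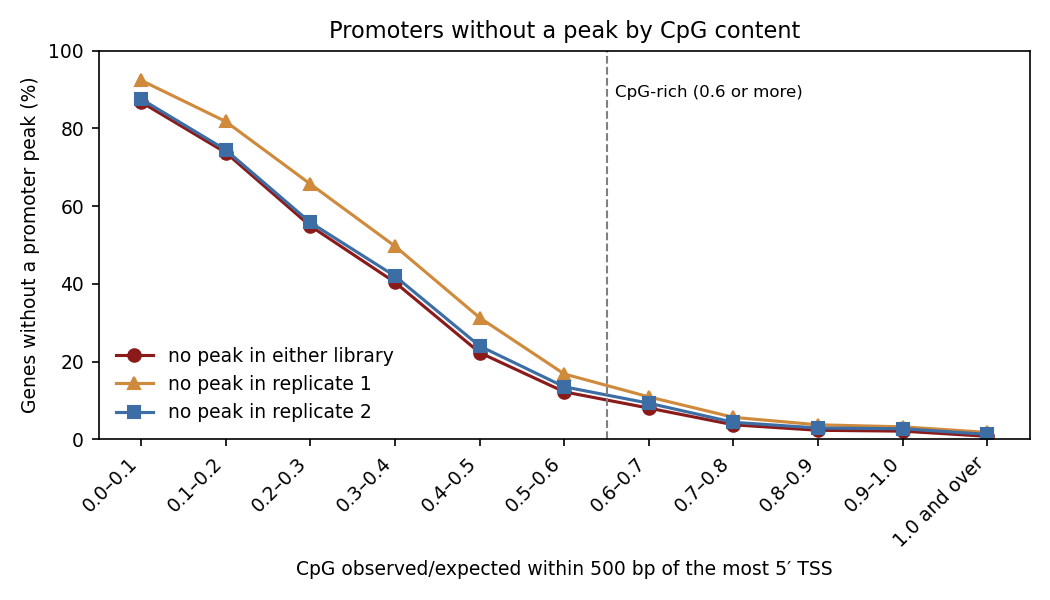
Share of autosomal protein-coding genes without a promoter peak (vertical axis, percent) by CpG observed/expected (horizontal axis, bins of 0.1), for either library and for each library alone. The share with no peak in either library falls from bin to bin, to 8.01% between 0.6 and 0.7 and to 3 of 401 promoters at 1.0 or more.

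Regulators of body patterning formed the largest named group among the silent promoters. Of 235 CpG-rich promoters of patterning factors, 101 were silent, or 43.0% against 4.05% of all CpG-rich promoters. Hox genes, which assign position along the body axis, were silent at 22 of 25 CpG-rich promoters. The other homeobox and Pax genes were silent at 49 of 99, T-box genes at 6 of 8, forkhead genes at 8 of 29, Sox genes at 4 of 15, lineage bHLH genes at 5 of 26, developmental zinc finger genes at 6 of 31 and Gata genes at 1 of 2. A peak in replicate 2 alone kept 24 more patterning promoters out, and a peak in replicate 1 alone 6. Without replicate 2, forkhead genes were silent at 13 of 29 and lineage bHLH genes at 9 of 26, beside 5.94% of all CpG-rich promoters. The lists were drawn up with earlier results of these data known, so the counts describe these libraries and are not independent evidence.

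Among Hox genes, Hoxa5, Hoxa13 and Hoxd13 had the highest CpG o/e of the silent ones, at 0.9955, 0.9315 and 0.9053. The nearest peak to Hoxa13, which patterns the distal limb and the urogenital tract, lay 3660 bp away in replicate 1 with a signal of 1.15 and 3640 bp away in replicate 2 with a signal of 0.861. The 3 Hox promoters with a peak were Hoxa7, with signals of 2.07 in replicate 1 and 1.00 in replicate 2, Hoxb5, with 0.524 and 0.543, and Hoxa4, with 0 in replicate 1 and 0.309 in replicate 2. Hoxa5 and Hoxa6 of the same cluster as Hoxa7 were silent.

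The homeobox genes outside the Hox clusters included factors of the midbrain, spinal cord, retina, gut and limb. Barhl2, En2 and Nkx6-2, a factor of ventral neural progenitors and oligodendrocytes, had CpG o/e of 1.07, 1.00 and 0.9785. Their nearest peaks lay at very different distances: 3895 bp in replicate 1 and 3815 bp in replicate 2 for Barhl2, 42374 and 42334 bp for En2, and 1343 and 3238 bp for Nkx6-2. At the other end, Pou3f3, a factor of upper-layer cortical neurons, had signals of 4.33 and 5.38, and Onecut2 had 3.61 and 3.11. Among T-box genes, Tbx21 of T lymphocytes, Tbx2 of limb and heart and T of the mesoderm were silent, while Tbx3 had 1.20 and 0.607. The silent Sox genes were the endothelial and endodermal factors Sox7, Sox17 and Sox18 together with Sox14, whereas Sox12 and Sox4, which act in neuronal differentiation, had 6.79 and 4.95, and 4.74 and 5.71.

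**Figure D2:**
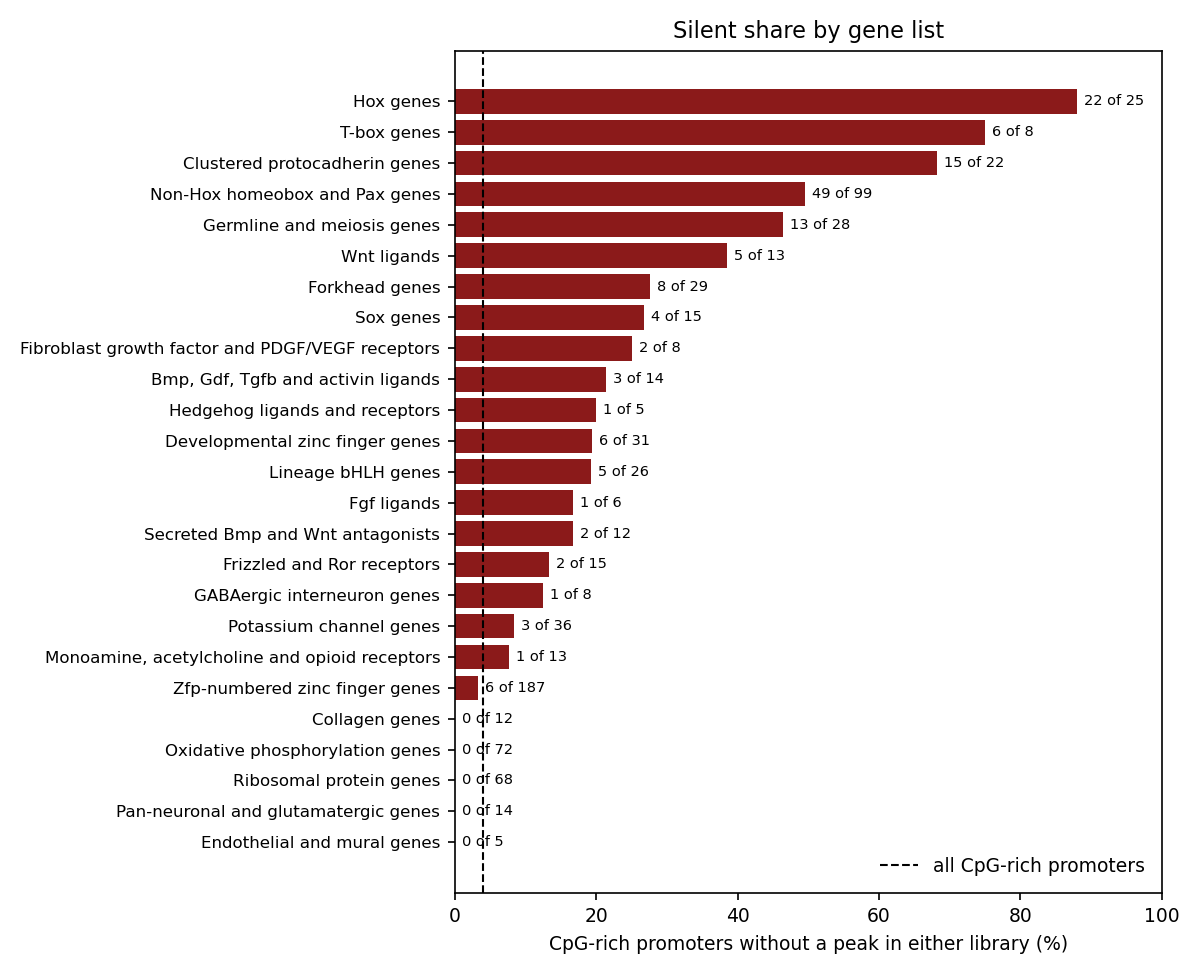
Share of CpG-rich promoters that were silent (horizontal axis, percent) for each gene list with 5 or more CpG-rich members (rows), with the counts beside the bars and a dashed line at 4.05% for all CpG-rich promoters. Hox genes lead with 22 of 25, and the 72 oxidative phosphorylation genes and 68 ribosomal protein genes have none.

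Secreted signals, their inhibitors and the receptor lists, transmitter receptors included, were silent at 17 of 86 CpG-rich promoters, or 19.8% against 4.05% of all CpG-rich promoters. Without replicate 2 the count was 29 of 86, beside 5.94% of all, with the inhibitors at 5 of 12 and the tyrosine kinase receptors at 5 of 8. Of the ligands, 5 of 13 Wnt genes were silent, among them Wnt3a, which acts in axial and hippocampal development and whose nearest peak lay 7289 bp away in replicate 1 and 3006 bp away in replicate 2. Bmp, Gdf, Tgfb and activin ligands were silent at 3 of 14 promoters, namely Bmp8b, Gdf7 and Gdf6, Fgf ligands at 1 of 6, namely Fgf8, and Hedgehog genes at 1 of 5, namely Ihh of cartilage and gut. Among the inhibitors, Nbl1 and Sfrp5 were silent of 12. The receptors Lrp5 and Fzd6 of 15 in the Wnt list, and Flt4 of lymphatic vessels and Fgfr3 of 8 tyrosine kinase receptors, were silent as well. Fgfr3 is also used as an astrocyte marker, and it had 14 annotated start sites and none had a peak within 1 kb.

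Genes of other tissues and functions gave small counts, to be read beside the 4.05% of all CpG-rich promoters. Ikzf3 and Gfi1, transcription factors of lymphocytes and blood, were silent of 4 CpG-rich blood genes, and Esrp2, an epithelial splicing regulator, of 4 epithelial genes. Drd5, a dopamine receptor, was silent of 13 monoamine, acetylcholine and opioid receptors, and Slc18a3, the vesicular transporter of acetylcholine, of 3 genes of transmitter synthesis and transport. Potassium channels were silent at Kcnk9, Kcnk15 and Kcnk6 of 36, or 8.33%, but at 2.78% against 3.27% of all CpG-rich promoters when the window was 2 kb. Without replicate 2 they were silent at 5 of 36, or 13.9% against 5.94% of all CpG-rich promoters. No promoter was silent among 14 CpG-rich neuronal genes, 68 ribosomal protein genes, 72 oxidative phosphorylation genes, 12 collagen genes, 5 endothelial genes, 3 oligodendrocyte lineage genes, 2 muscle genes or 2 microglia genes. At 4.05%, lists of a few genes would often hold none. Without replicate 2, 3 of 12 collagen genes, 3 of 5 endothelial genes and 1 of 14 neuronal genes had no peak, beside 5.94% of all CpG-rich promoters. The ribosomal and oxidative phosphorylation lists still had no silent promoter. The Zfp-numbered zinc finger genes, a large CpG-rich family, were silent at 6 of 187 promoters or 3.21%.

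Of the 398 silent promoters, 187 belonged to no list and to no repeated sequence, which was 2.1% of 8915 such CpG-rich promoters. Amigo1, an adhesion protein that associates with a neuronal potassium channel, had a CpG o/e of 0.9915, and its nearest peak lay 9846 bp away in replicate 1 with a signal of 1.11 and 9946 bp away in replicate 2 with a signal of 0.687. Hmga2, an architectural chromatin protein of embryonic cells, had the longest CpG-rich stretch of these promoters at 3120 bp, and Dio3, the enzyme that inactivates thyroid hormone, followed with 2883 bp. The nearest peak to Hmga2 lay 26332 bp away in replicate 1 and 1231 bp away in replicate 2.

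Several of these promoters had many accessible sites around them. Fam83f had 13 shared distal DHSs within 50 kb, Nxph4, a secreted neurexin ligand, had 11, Draxin, an axon guidance protein, had 10, and Neurl1b, a ubiquitin ligase of the Notch pathway, had 10. A shared distal DHS is a region over 1 kb from any TSS that holds a peak of both libraries. Transcription factors and transcriptional co-regulators outside the lists, chosen after their values were seen, included Tfap2b, Tfap2d, Tfap2e, Skor1, Skor2, Dmrt3, Fev, Lef1 and Eya2, and Tfap2d and Tfap2b were neighbours on chromosome 1.

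The clustered protocadherins, cell-surface proteins of which each neuron uses a few, were silent at 15 of 22 CpG-rich promoters. This was 68.2%, against 4.05% of all CpG-rich promoters. Pcdhgc3 and Pcdhgc4, C-type isoforms of the gamma cluster, had signals of 3.76 and 3.72, and of 1.18 and 1.43. Pcdha5 and Pcdha9 had a peak in replicate 1 alone, and Pcdhga8 and Pcdhgb5 in replicate 2 alone. The 15 silent ones had a median GC content of 46.1%, against 46.9% in the 7 with a peak and 61.2% in all CpG-rich promoters with a peak. Their sequence was also less unique. A median of 79.6% of the 31-base stretches within 500 bp of the TSS occurred a single time in the genome, against 93.5% in the 7 with a peak. The part of this in the missing peaks was not tested.

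Germline and meiosis genes were silent at 13 of 28 CpG-rich promoters, or 46.4% against 4.05% of all CpG-rich promoters. The 13 were Asz1, Ddx4, Fkbp6, Hormad1, Mael, Mov10l1, Rpl10l, Slc25a31, Sycp1, Sycp2, Sycp3, Tdrd6 and Tex12, with proteins of the piRNA pathway, the synaptonemal complex and spermatogenesis among them. Of the germline genes with a peak, Tssk6 had the highest signals, at 6.58 and 7.55, followed by Msh5, a meiotic mismatch repair protein, at 4.60 and 3.84. Tdrd1 and Meiob had a peak in 1 library only, with 0.249 in replicate 2 and 0.316 in replicate 1.

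The E-box CACGTG occurred within 500 bp of the TSS in 12 of the 13 silent germline promoters, against 8 of 15 accessible germline promoters and 22.7% of all CpG-rich promoters. E-boxes were searched at the most 5′ TSS, and Mei1 and Msh4, both with an E-box, counted as accessible through a peak at another TSS only. Of the 13 accessible ones with a peak within 1 kb of the TSS searched, 6 held an E-box. Tdrd6 was the silent one without it. Within 250 bp of the TSS the counts were 10 of 13 against 7 of 15, beside 14.4% of all CpG-rich promoters. The centre of the nearest E-box lay within 100 bp of the TSS in 6 of the 12 silent promoters with one, against 6 of the 8 accessible ones. Among CpG-poor germline promoters, 7 of 27 silent ones and 2 of 12 accessible ones held an E-box. The pattern was noticed after the values of 112 combinations of group and motif were seen, and it was not tested.

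**Figure D3:**
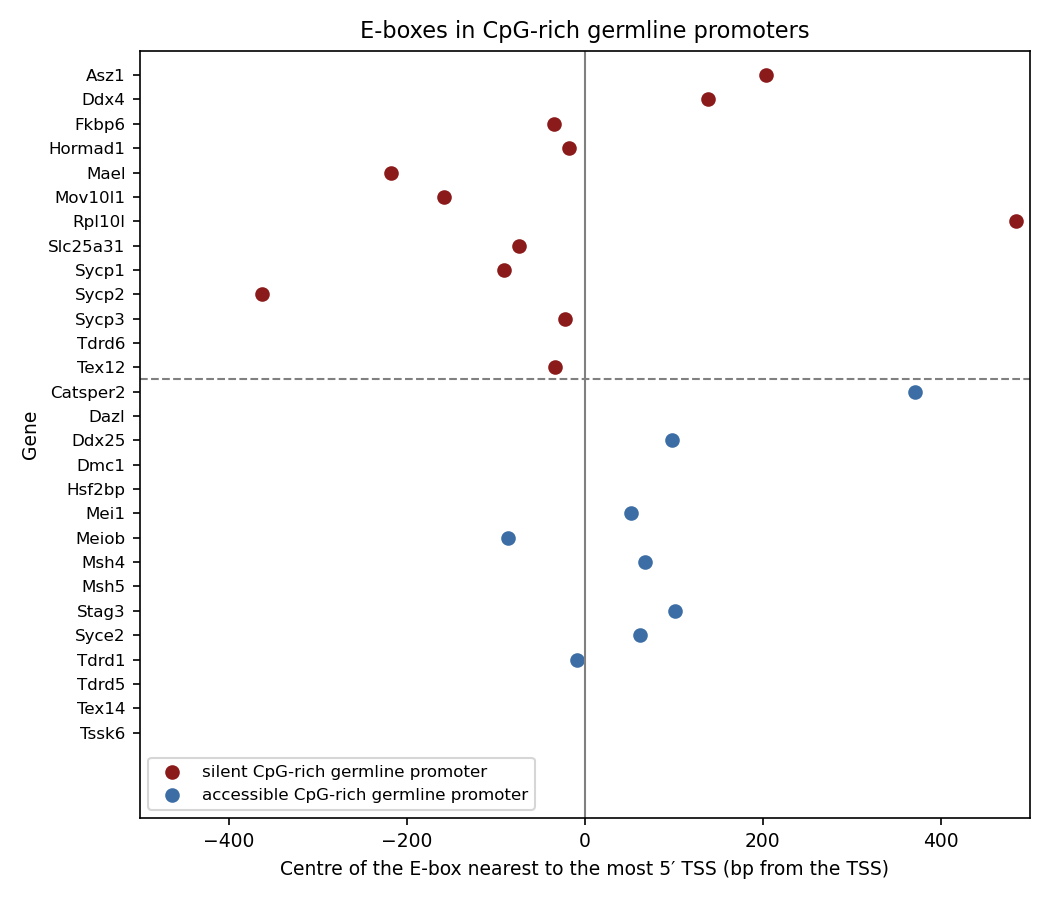
Position of the E-box nearest to the most 5′ TSS (horizontal axis, bp from the TSS, positive downstream) in the 28 CpG-rich germline promoters (rows), with silent promoters above the dashed line and accessible ones below it. Genes without a point have no E-box within 500 bp: Tdrd6 among the silent promoters and 7 of the 15 accessible ones.

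Motifs known from the promoters of broadly expressed genes were less frequent in silent promoters than in other CpG-rich promoters. Matches were searched on both strands within 500 bp of the most 5′ TSS. The ETS motif CCGGAAG occurred in 14.6% of silent promoters (95% Wilson interval 11.4% to 18.4%, counting error only), against 32.1% of other CpG-rich promoters and 19.5% of all promoters. The NRF1 motif GCGCATGCG was in 1.76% of silent promoters against 5.66% of other CpG-rich promoters and 3.02% of all promoters, and YY1, AANATGGCG, in 5.53% against 11.6% and 6.23%. The CRE motif TGACGTCA was in 2.76% against 5.34% and 3.33%, and the ZBTB33 motif TCTCGCGAG, read on both strands, in 0.754% against 2.49% and 1.25%. The share in the other CpG-rich promoters lay above the Wilson interval of the silent ones for 7 of 16 motifs, namely these 5, the SP/KLF GC box GGGCGG, at 87.2% against 92.3%, and the NFI motif TTGGCA, at 22.9% against 27.8%. At 102 of the 9424 other promoters the peak lay near another TSS than the one searched. In all, 13 of 16 motifs had a lower share in silent promoters, 2 of them, CTCF (AGGGGGCGC) and the homeobox motif (TAATTA), by under 0.1 percentage points. The share was higher for the E-box, at 25.9% against 22.6% of the others and 17.3% of all promoters, for the TATA box (TATAAA), at 19.8% against 18.4% and 32.2%, and for E2F (TTTCGCGC), at 3.02% against 1.72% and 0.937%. Of the 12 silent promoters with the E2F motif, 6 were of repeated sequence. A stretch can match more than 1 motif: E2F and ZBTB33 share the letters TCGCG, and the E-box and CRE share ACGT.

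ETS, NRF1, YY1, CRE and ZBTB33 motifs were held by 22.6% of silent promoters, at least 1 of the 5, against 46.7% of other CpG-rich promoters. By group, the shares were 13.9% of silent against 23.9% of accessible patterning factors, and 11.8% against 14.5% of signals, inhibitors and receptors. In germline promoters they were 46.2% against 40.0%, in repeated sequence 47.2% against 46.2% and in clustered protocadherins 6.67% against 0.0%. In promoters of no list they were 21.4% against 47.1%, and in the other lists 16.7% against 51.7%. The silent patterning factors had the ETS motif in 8 of 101 promoters, against 22 of 134 accessible patterning factors. Because CpG o/e is lower in silent promoters, the other promoters were also weighted to the same CpG o/e, and the ETS share was then 31.2%. With these weights the shares for ETS, NRF1, YY1, CRE and NFI still lay above the interval of the silent promoters, whereas ZBTB33, at 1.84%, lay inside its interval of 0.257% to 2.19%, and the GC box, at 90.1%, was no longer above its own. The silent promoters with sequence found elsewhere in the genome held the ETS motif at 20 of 53, and without them the ETS motif was in 38 of 345 silent promoters against 3003 of 9346 others. ZBTB33 and NFI shares of the others then lay inside the intervals of the silent promoters. The RFX share of the others, 1.41% without weights, then lay above the silent interval, which reached 1.1%.

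**Figure D4:**
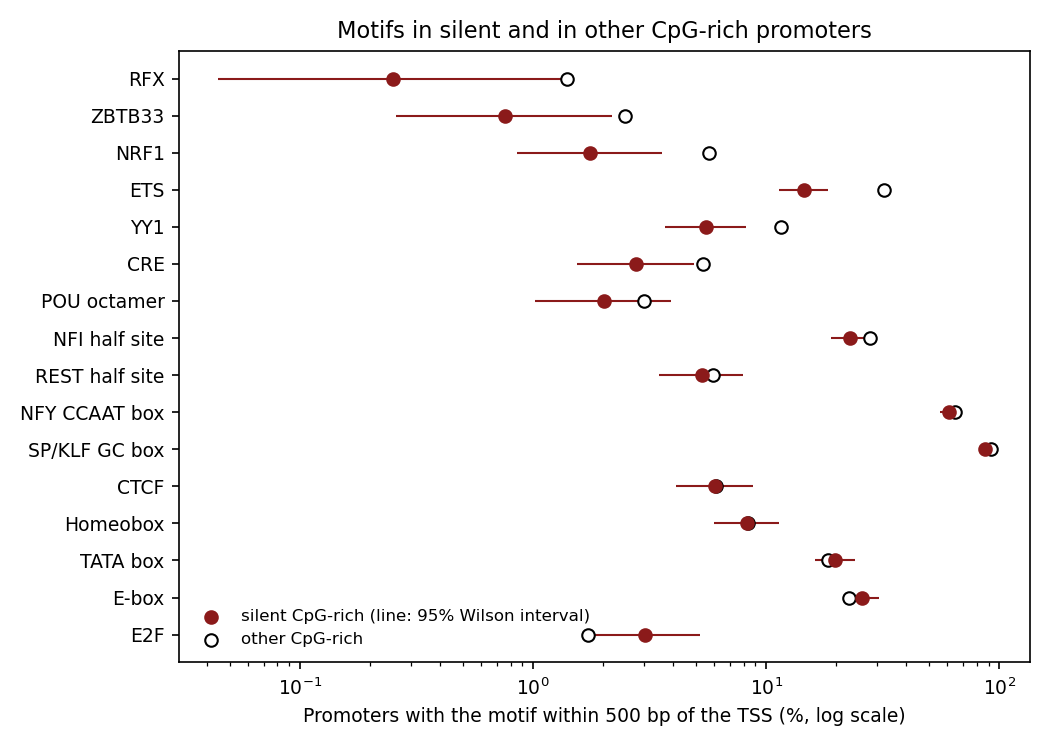
Share of promoters holding each of 16 motifs within 500 bp of the TSS (horizontal axis, percent, log scale) in silent CpG-rich promoters (filled, with 95% Wilson intervals) and in other CpG-rich promoters (open). The ETS motif stands at 14.6% in silent promoters and 32.1% in the others.

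The silent promoters also differed in annotation and sequence length. Their genes had a median of 2 annotated start sites, against 5 in the other CpG-rich promoters, and a median length of 11364.5 bp against 27022 bp. Patterning factors had a median of 2 start sites whether silent or accessible, as did signals, inhibitors and receptors. Median lengths were 5575 bp in silent and 7175 bp in accessible patterning factors, and 15395 and 25863 bp in signals, inhibitors and receptors. In genes of no list, the medians were 2 against 5 start sites and 17050 bp against 28090 bp. A gene with fewer start sites has fewer windows in which a peak can fall, and the part of this in the silent shares was not tested. The silent share was 12.99% of 1209 CpG-rich genes with 1 TSS, 5.26% of 3670 genes with 2 to 4 and 0.97% of 4943 genes with 5 or more. For patterning factors, the same shares were 47.9% of 94, 49.5% of 99 and 16.7% of 42. GC content had a median of 61.0% in silent promoters and 61.2% in the others. The CpG-rich stretch around the start had a median of 1001.5 bp in silent promoters and 1097 bp in the others. Of the 33 silent promoters with a stretch of 2 kb or more, 24 belonged to patterning factors, with Cdx2 at 3265 bp, Lhx1 at 2986 bp and Foxf1 at 2979 bp. Such stretches were held by 23.8% of silent patterning factors and 35.1% of accessible ones.

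A share of the silent promoters consisted of sequence that occurs more than once in the genome. In 53 of 398 fewer than 50% of the 31-base stretches within 500 bp of the TSS occurred a single time in the reference genome, against 78 of 9424 other CpG-rich promoters, and the part of this in the missing peaks was not tested. Where fewer than 10% were unique, 43 of 58 promoters were silent. Entpd4 and Entpd4b, 2 genes on chromosome 14, had identical sequence within 500 bp of the TSS, and 12 members in 6 pairs did so in all. Phf10, a chromatin remodelling subunit, was 27.0% unique and lay in a run of 6 neighbouring silent promoters on chromosome 17, the longest in the order of all autosomal protein-coding genes. With the 53 left out, 345 of 9691 promoters were silent, or 3.56%, and the shares of the Hox, other homeobox and germline lists did not move, since none of their members was among the 53.

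The nearest peak lay at a median of 9535 bp in replicate 1 and 6963 bp in replicate 2 from a silent start site, and 58 of 398 had a peak of either library within 2 kb. By group, the medians in replicate 1 and replicate 2 were 10043 and 6895 bp for patterning factors, 7289 and 4640 bp for signals, inhibitors and receptors, 8109 and 8089 bp for germline genes, and 25104 and 29780 bp for repeated sequence. The farthest was Gm21953, of a repeated family, at 482497 bp. Shared distal DHSs averaged 3.0 within 50 kb of a silent promoter and 2.91 for the others, but 5.88 against 6.08 within 100 kb. All distal peaks of replicate 2, shared or not, averaged 6.02 against 6.65 within 50 kb, so which class had more depended on the measure. No such DHS lay within 50 kb for 17.8% of silent promoters against 10.8% of the others, and 28 of the 71 silent ones were of repeated sequence. With repeated sequence left out, the shares were 12.5% and 10.6%.

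**Figure D5:**
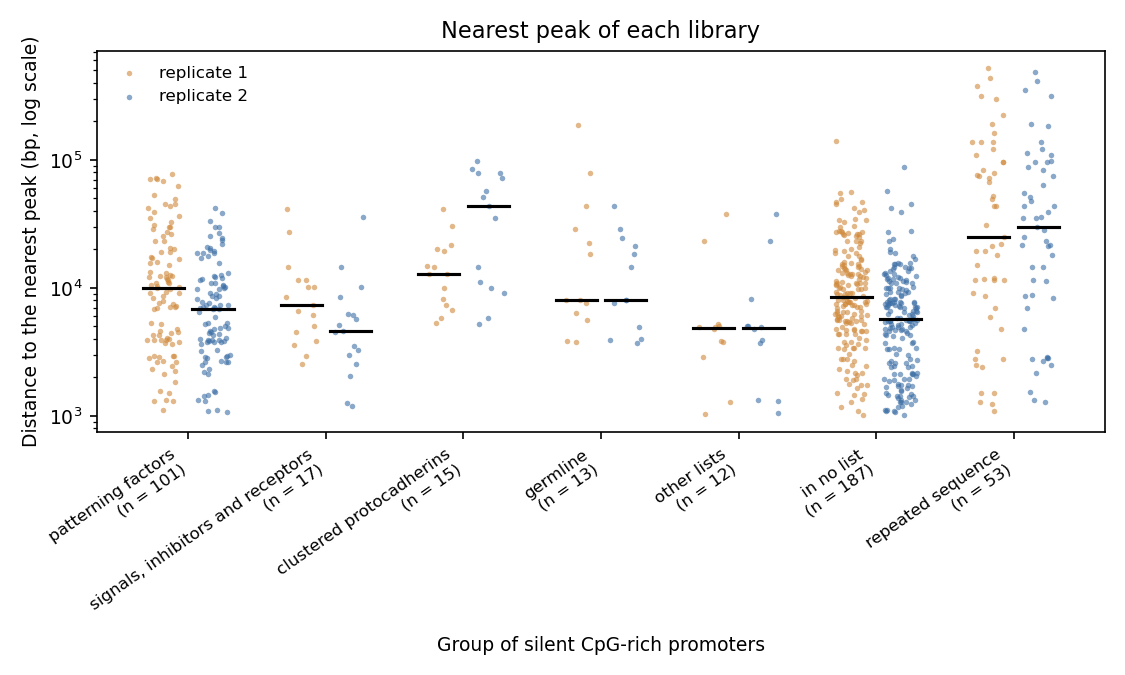
Distance from the most 5′ TSS to the nearest peak (vertical axis, bp, log scale) for each silent promoter, by group, in replicate 1 and replicate 2, with medians as black bars. Repeated sequence has the largest replicate 1 median, 25104 bp, and clustered protocadherins the largest replicate 2 median, 43925 bp.

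Segments of raised cut rate come from the same cleavage counts as the peaks that chose the members, so their shares are a description. The authors' segments, deposited at a q-value (adjusted for the number of positions) of 0.05 or less, reached within 1 kb of a TSS at 5.03% of silent promoters in replicate 1 and 4.02% in replicate 2, beside 94.7% and 95.5% of all CpG-rich promoters. Weaker cleavage was not measured in them. At 6 members both libraries had such a segment. Oxtr, the oxytocin receptor, had the lowest q in both, 3.2546e-06 in replicate 1 and 9.13537e-06 in replicate 2, with its nearest peak 1018 bp from the TSS in both libraries. Zfp503, a transcriptional repressor of forebrain development, had 0.00342 and 3.74875e-05, with peaks at 1041 and 1061 bp. The other 4 were En2, Tdrd6, Pcdha8 and Lrp4, none under 0.03. No member had a footprint, a short protected stretch, in either library within 1 kb. Where footprints were sought is not given in the sources used here, so nothing is read from their absence at promoters chosen for having no peak.

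Some silent promoters neighboured each other. Runs were counted for the silent promoters only, so whether these are more than other promoters would give was not tested. In the order of all autosomal protein-coding genes, 92 of 398 lay in 36 runs of 2 or more, of which 10 had 3 or more. In the order of CpG-rich genes alone, 122 lay in 43 runs, 16 of them of 3 or more and the longest of 8. The 6 neighbours on chromosome 17 were all of repeated sequence. Other longer runs in the order of all genes included 5 on chromosome 2 (Hoxd10, Hoxd9, Hoxd8, Hoxd3 and Hoxd4) and 5 on chromosome 18 (Pcdha1, Pcdha2, Pcdha3, Pcdha4 and Gm42416). At 22 members the 500 bp window overlapped that of another member, so neighbours do not all count as separate sequences.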

How the data were processed

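DNase-seq libraries of 2 samples, biological replicates 1 and 2, were used with no comparison between groups, and no test was run. Peaks were deposited by the authors per library, with a signal per peak whose unit is not stated, and segments with the q-value of the cut rate, at most 0.05 as deposited; the authors' footprint p-value column holds a constant and was not used. Each library came with 2 lists of peaks; the longer one served here. The genome is mm10 per the labels; no source used here names the aligner or the caller. Depth is unknown, so the precision that depth gives could not be stated.

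Genes came from GENCODE M21 (20807 autosomal protein-coding genes), sequence from GRCm38.p6; all peaks ended inside its chromosomes. The CpG-rich stretch merged 200 bp windows with at least 50% GC and CpG o/e of 0.6. Of each promoter, 31-base stretches were counted across the genome on both strands. Motif, overlap and k-mer functions recovered planted answers in simulated data. Members, gene lists, groups and motifs were chosen with earlier results of these data known. Named genes were those with the highest CpG o/e of each list, the accessible ones with the highest mean signal, and the extremes over all members; others were chosen after their values were seen. Promoters with E-boxes were chosen to show the motif. Alternatives changed the peak list, window, start sites, CpG threshold and libraries. Shares carry 95% Wilson intervals where given. Computations used Python, NumPy, pandas, SciPy, Numba and Matplotlib. A few genes are not reported here.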

Additional observations from a re-analysis of the deposited data

How the results depend on the processing

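No paired analysis was possible because both libraries belong to 1 group. The number of silent promoters was 398; it was 731 with the stricter peak list and 202 at a CpG o/e of 0.7 or more, both by construction, and 157 and 193 when only genes with 1 or with 2 to 4 start sites entered. Without replicate 1 or without replicate 2 it was 474 and 583. Of 25 lists with 5 or more CpG-rich members, 19 had a silent share above that of all CpG-rich promoters. Counting only lists that held 5 or more genes under an alternative, the number was 10 with 1 start site only. It was 14 to 23 under the other alternatives. With smaller lists counted too, 1 set of lists stayed above the share of all CpG-rich promoters under all 13 alternatives. These were the Hox, other homeobox, T-box, forkhead, Sox, bHLH, zinc finger, Wnt, Bmp, antagonist, protocadherin and germline lists. Some were then very small, such as T-box genes with 1 start site, silent at 2 of 2, and zinc finger genes with 1 start site, at 1 of 6. Of all CpG-rich genes with 1 start site, 157 of 1209 or 12.99% were silent. The share of silent promoters with a segment of q at most 0.05 in either library was 7.54%, and 0.754% at 0.01 and 0.503% at 0.001. Shared distal DHSs averaged 3.0 at silent and 2.91 at other promoters within 50 kb, but 5.88 and 6.08 within 100 kb. Without replicate 1, all distal peaks of replicate 2 within 50 kb were counted, shared or not, with means of 6.02 and 6.65. Without replicate 2, all those of replicate 1 were counted, with means of 3.32 and 3.25. The median nearest peak of either library lay at 6250 bp, and at 9010 bp with the stricter list. Median GC content of silent promoters was 64.1% within 250 bp and 56.9% within 1 kb. The cause of these shifts was not tested. The uniqueness, start site and CpG weighting alternatives were chosen after seeing the data. Depth is unknown for both libraries, which limits how firmly a missing peak can be read.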
